A study of Sus scrofa with 12 samples.

Results

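The RAB proteins are the largest branch of the RAS superfamily of small GTPases. In the GTP-bound state a RAB recruits effectors that form, move, tether or fuse a transport vesicle, and each RAB is found mainly on its own set of membranes. RAB35, the member around which this account is built, sits at the plasma membrane and on endosomes, where it is known for returning cargo to the surface and for organising the actin cytoskeleton. The family was taken as every row of the expression tables whose gene symbol reads RAB followed by a number and at most a letter and a further digit. That pattern found 54 of 24358 rows, the same in both tables. RAB35 itself was chosen by its measured values, because its level was lower with Activin A than with SB431542, so its levels in that contrast are given as a description with no test. The RNA was bulk RNA, in which fewer cells of a type and less RNA per cell cannot be told apart.

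The study made a NANOG reporter in pig induced pluripotent stem cells and asked which cytokines act on NANOG. RNA sequencing covered 12 libraries in 4 groups of 3. WT were PC-iPS cells without the reporter. KI were PC-iPS cells with a NANOG tdTomato knock-in reporter, in which a red fluorescent protein was inserted at NANOG by CRISPR/Cas9. Both were grown in LCDMV medium, which contains LIF. ActA and SB were knock-in cells grown in the same medium without LIF and treated with Activin A, a ligand of the TGF-β family, or with SB431542, an inhibitor of the receptors for Activin and TGF-β. Each knock-in culture was a selected population and not a single clone, so its cells may differ in the number and place of insertions. Feeder cells had been removed by letting them attach to a plate, and all cells came from the domestic pig. KI and WT were deposited in one table and ActA and SB in another, so levels are set side by side across the tables and tests are kept within a table. The KI libraries are titled Nanog1, Nanog2 and Nanog3, names of separate knock-in lines whose cultures had been transfected independently. For the other groups nothing in the labels says that the libraries came from separate cultures, and p-values there measure only the spread between these libraries.

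Expression was given as FPKM, a measure that divides the fragments of a gene by its length and by all mapped fragments, so read depth is unknown and no counting interval can be given. FPKM summed to 364241 to 390320 per library, and 15339 to 15827 genes were above 0. Relative depth, estimated from the commonest ratio of low values and set to 1 for KI library 1, was 0.561 to 0.635 in WT, 0.724 to 1 in KI, 0.862 to 0.969 in ActA and 0.826 to 0.956 in SB. Across genes, libraries of a group correlated at 0.975 to 0.989. SOX2, a core pluripotency factor, stood at 39.1 to 45.7 FPKM in WT and at 56.9 to 71.5 in the other groups. Of 9 pluripotency markers listed, 8 were matched, and the epithelial EPCAM and the co-receptor TDGF1 were under 1 FPKM in every library. Summed over the 8, the level was 137 to 155 FPKM in WT, 283 to 508 in KI, 297 to 499 in ActA and 320 to 642 in SB. Most of it came from LIN28A and NANOG in KI and ActA, and from LIN28A (192 to 498 FPKM) in SB. Of the 8, 4 were higher and 0 lower in KI than in WT without overlap. NANOG was 109 to 195 FPKM in ActA and 11.8 to 27.2 FPKM in SB. The 12 markers of pericytes and fibroblasts summed to 39.2 to 50.2 FPKM in WT, 366 to 510 in KI, 367 to 459 in ActA and 348 to 467 in SB, most of it from TAGLN in KI, ActA and SB. Of the 12, 5 were higher and 2 lower in KI than in WT without overlap. PDGFRB was 1.75 to 3.23 FPKM in WT and 6.99 to 15.3 FPKM in the other groups and ACTA2 1.17 to 1.73 and 7.52 to 20.6 FPKM, MCAM was 8.74 to 15.4 FPKM over all libraries, and CSPG4, DES and RGS5 were at or under 2.06 FPKM in each. LEFTY2, a target of Activin signalling, stood at 0.783 to 1.37 FPKM in ActA and was listed at 0 in all 3 SB libraries.

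The 54 members together took 809 to 876 FPKM. Their share of the total of a library was 0.212% to 0.218% in WT, 0.217% to 0.232% in KI, 0.217% to 0.226% in ActA and 0.230% to 0.235% in SB. SB lay wholly above ActA and WT, but the sum includes RAB35, which was chosen for being higher in SB than in ActA. RAB35 was 0.621% to 0.647% of the family's FPKM in ActA and 1.79% to 1.90% in SB, so nothing is read from the separation of these groups. At or above 1 FPKM in all 12 libraries were 39 members, and 23 had a mean of at least 10 FPKM. A mean below 1 FPKM was found for 13 members, 4 never reached 0.1 FPKM, and RAB37 was listed at 0 throughout. The levels that follow are FPKM, which is per gene length and can be set between genes. RAB11B, a GTPase of the recycling endosome, had the highest mean over the 12 libraries, 98.4 FPKM (range 56.0 to 120). RAB1B, which acts between the endoplasmic reticulum and the Golgi, had a mean of 88.5 FPKM (61.4 to 106). RAB7A, of the late endosome and lysosome, averaged 71.6 FPKM (60.2 to 78.3), and RAB2A, which also acts between the endoplasmic reticulum and the Golgi, 70.6 FPKM (65.2 to 75.3). RAB10, which serves polarised delivery and insulin-responsive transport, followed with 54.0 FPKM (47.8 to 68.6). This order over all libraries did not hold in every group. In WT the highest mean was that of RAB2A (73.2 FPKM), before RAB1B (70.8), RAB11B (70.4), RAB10 (65.8) and RAB7A (62.5), and the WT libraries of RAB1B and RAB11B overlapped. RAB2A lay wholly above RAB7A in WT and wholly below it in SB. RAB35 had a mean of 11.3 FPKM. Under the filter on low values in both tables were RAB17, RAB19, RAB20, RAB37 and RAB44; RAB38 was under it in KI and WT only and RAB9B in ActA and SB only.

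RAB35 (ENSSSCG00000033876) lies on chromosome 14 of Sscrofa11.1, from 40124318 to 40141261 in the RefSeq annotation, and spans 16944 bases with 1 annotated transcript. Its values fell at 2 separate levels over the 12 libraries. In ActA it stood at 5.31, 5.57 and 5.06 FPKM, and in SB at 15.9, 15.6 and 15.7 FPKM. In KI the 3 values were 5.20, 15.6 and 16.0 FPKM, and in WT they were 16.4, 4.15 and 15.5 FPKM. All ActA libraries, KI library 1 and WT library 2 were therefore low, and the other 7 libraries were high. The 5 low libraries ranged from 4.15 to 5.57 FPKM and the 7 high ones from 15.5 to 16.4 FPKM, with nothing between them. ActA and SB did not overlap, whereas KI and WT each held both levels.

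**Figure D1:**
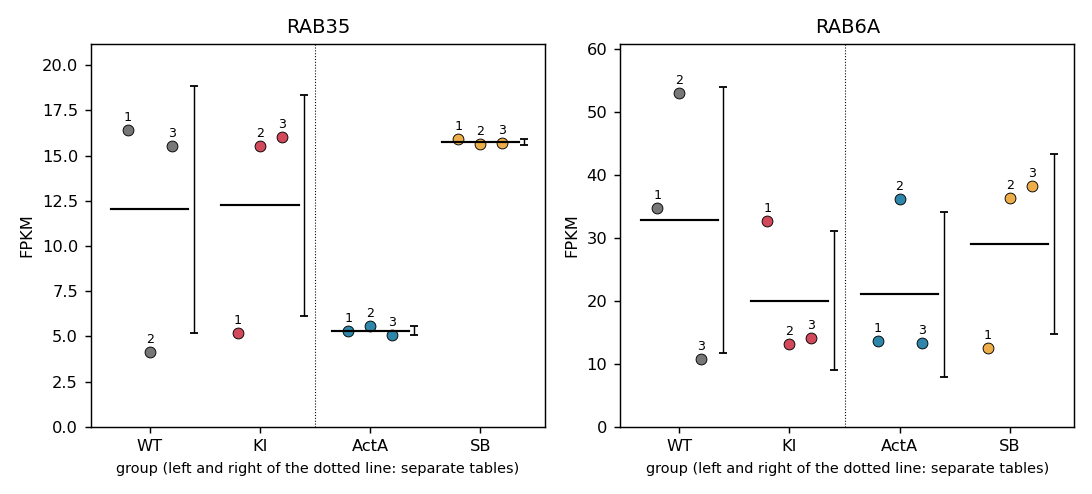
FPKM of RAB35 (left panel) and RAB6A (right panel) in each library, with the library number above the point, the group mean as a horizontal line and 1 SD to each side of it as a bar (n = 3). RAB35 lies near 5 FPKM in all ActA libraries, KI library 1 and WT library 2 and near 16 FPKM elsewhere, and RAB6A has a high and a low level inside every group.

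The mean of RAB35 was 5.31 ± 0.257 FPKM (SD, n = 3) in ActA and 15.7 ± 0.169 FPKM (SD, n = 3) in SB, which puts the SB mean 2.96-fold above the ActA mean. On the log2(FPKM + 1) scale, where differences of low genes are understated, ActA minus SB was -1.41 (standard error 0.084). These are the values that chose the gene and no test is given for them. In KI, cells without either agent and with LIF, the mean was 12.3 ± 6.12 FPKM (SD, n = 3), and in WT it was 12.03 ± 6.84 FPKM (SD, n = 3). The order of the means was SB, KI, WT and ActA, and the neighbours SB and KI, KI and WT, and WT and ActA all overlapped. KI minus WT was 0.08 on the log2(FPKM + 1) scale with a 95% interval of -1.22 to 1.37 (standard error 0.56, limma adjusted p = 0.94). Without WT library 2 the same difference was -0.49, and without KI library 1 it was 0.56. RAB35 made up 0.513% to 0.647% of the family's FPKM in the low libraries and 1.79% to 1.99% in the high ones.

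How often a gene behaves in this way was counted over the 10263 genes with at least 1 FPKM in all 12 libraries, by a description chosen after the values of RAB35 had been seen. The 12 values of a gene were put in order, and the gene was counted as having 2 levels if its largest gap was at least 1 on the log2 scale, was wider than the range on either side of it, and had at least 2 libraries on each side. Such genes numbered 82, or 0.799% of those examined. Of these, 31 had WT on one side and everything else on the other, and 34, or 0.331% of those examined, had at least 2 groups divided between the levels, as RAB35 has. RAB35 had a gap of 1.48 (2.79-fold) against ranges of 0.42 among its low and 0.08 among its high libraries, and 99.4% of the genes had a smaller gap. RAB35 was chosen for a wide difference between ActA and SB, so its place by gap follows in part from that choice. No other of the 82 genes divided the libraries in the same way. Among the 34, only MYH14 and NRCAM shared a split, so a split of its own does not set RAB35 apart. Among the 39 members that could be examined, 2 had such levels, RAB35 and RAB6A, and the median gap of the 39 was 0.22 against 0.24 over all genes.

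**Figure D2:**
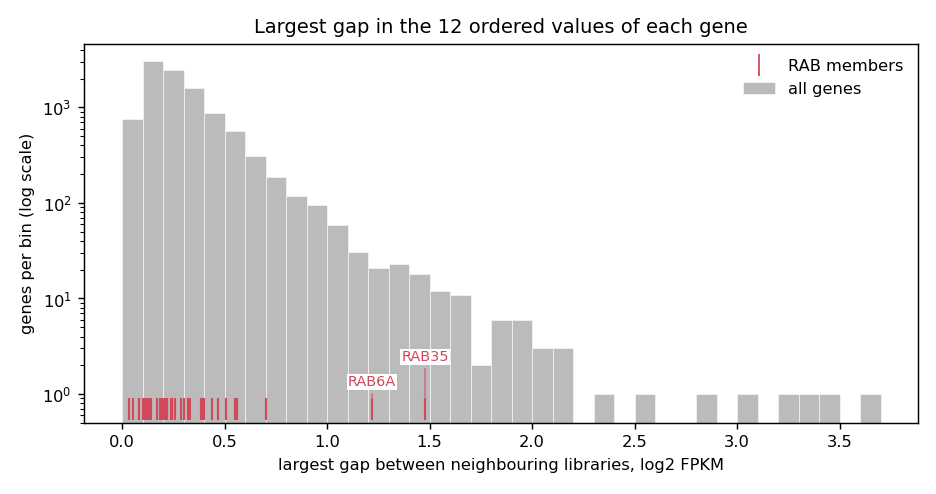
Largest gap between neighbouring libraries when the 12 values of a gene are put in order (x axis, log2 FPKM), as the number of genes per bin on a log axis for 10263 genes; red ticks mark the 39 RAB members. RAB35 (1.48) and RAB6A (1.22) lie in the right tail, while the other members lie with most genes.

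The genes beside RAB35 did not share its levels. BICDL1, which encodes an adaptor of dynein and kinesin transport, overlaps 1224 bases at the lower-coordinate end of the RAB35 span and stood at 0.203 to 0.714 FPKM, under 1 FPKM in every library. GCN1, the next gene, which encodes a regulator of the translational stress kinase GCN2, ranged only from 22.2 to 31.0 FPKM, with 28.9 FPKM in KI library 1 and 24.8 FPKM in WT library 2. ALDH2, a mitochondrial aldehyde dehydrogenase and the nearest gene before RAB35 that does not overlap it, ranged from 4.59 to 8.93 FPKM. Reads were assigned to transcripts by the authors, and the exons behind the RAB35 value cannot be seen in a table per gene. What lies behind the 2 levels was not tested.

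RAB6A, a GTPase of the Golgi that drives transport back to the endoplasmic reticulum and out along microtubules, had a high and a low level in every group. It stood at 34.7, 53.1 and 10.8 FPKM in WT, 32.7, 13.2 and 14.1 FPKM in KI, 13.7, 36.2 and 13.3 FPKM in ActA and 12.5, 36.4 and 38.2 FPKM in SB. The 6 low libraries ranged from 10.8 to 14.1 FPKM and the 6 high ones from 32.7 to 53.1 FPKM. The high libraries were different from those of RAB35, since WT library 2 was the highest for RAB6A and low for RAB35. No group of RAB6A stood apart from another, and its KI minus WT value was -0.55 with a standard error as large, 0.57 (limma adjusted p = 0.55). It was -1.19 without WT library 3 and -0.089 without WT library 2. Of the remaining members, none had a gap of 1, and 5 had one of at least 0.5. Among these, RAB1A had a single library apart, ActA library 2 at 37.5 FPKM against 18.4 to 23.1 FPKM in the other 11. RAB5A, which organises the early endosome, likewise had SB library 2 at 56.9 FPKM against 24.7 to 38.8 FPKM elsewhere.

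The closest relatives of RAB35 are RAB1A, RAB1B, RAB8A, RAB8B, RAB10 and RAB13, the first pair acting between the endoplasmic reticulum and the Golgi and the others in delivery to the plasma membrane, to cilia or to junctions. RAB13 carries no symbol in the tables and is not counted as a member. None of the 5 members among them had 2 levels over the libraries as RAB35 has. In ActA, RAB8B was wholly below SB, at 23.3, 20.8 and 22.04 FPKM against 26.2, 24.2 and 32.9 FPKM (-0.31, standard error 0.12), as was RAB10, at 50.1, 48.1 and 47.8 FPKM against 51.9, 50.9 and 53.4 FPKM (-0.10, standard error 0.060). The ActA and SB values of RAB1A, RAB1B and RAB8A overlapped. For RAB1B each ActA library nevertheless lay above the SB library of the same number (0.07, standard error 0.061), while the pairs of RAB1A and RAB8A went both ways. RAB8A ranged from 16.7 to 20.5 FPKM over all 12 libraries. RAB1A was 21.6, 20.8 and 22.1 FPKM in WT and 21.5, 22.8 and 18.4 FPKM in KI, where KI minus WT was -0.04 (95% interval -0.31 to 0.22). RAB1B was 61.4, 66.5 and 84.6 FPKM in WT and 77.2, 97.4 and 106 FPKM in KI, an overlap at WT library 3 (0.40, standard error 0.16, limma adjusted p = 0.16).

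**Figure D3:**
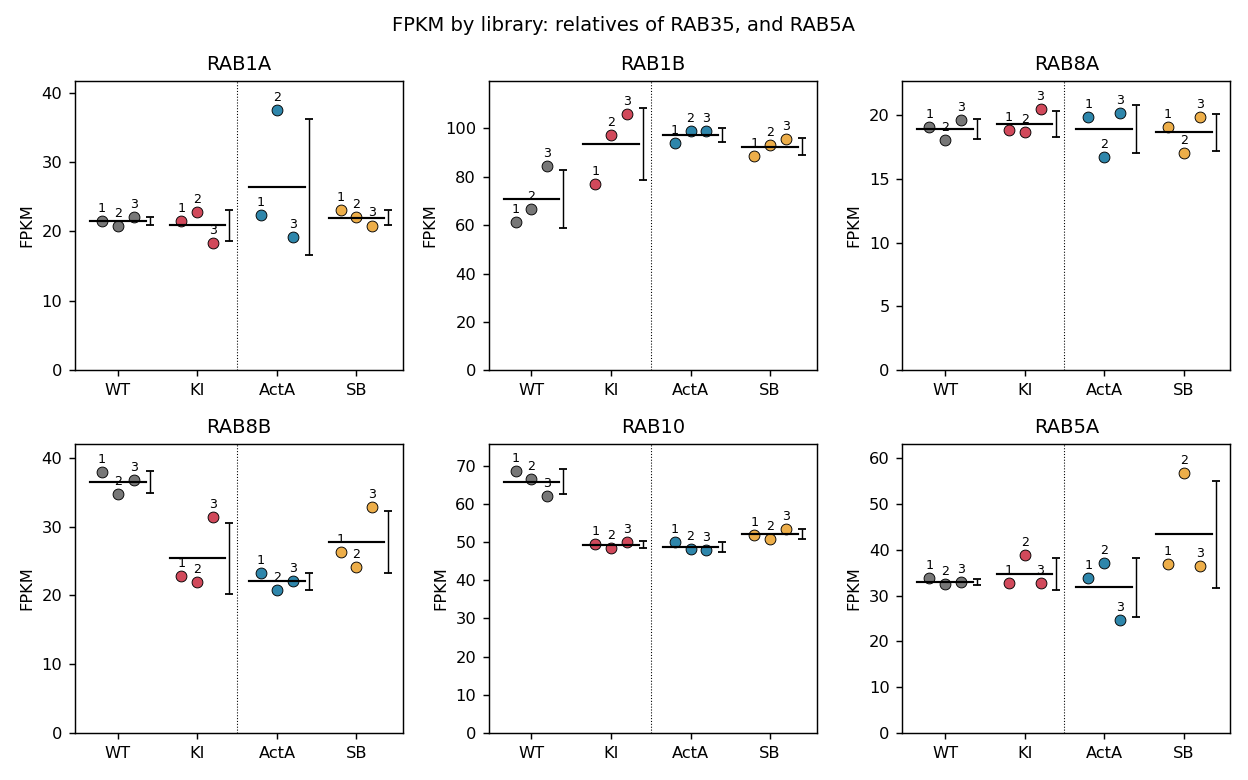
FPKM by library for 5 relatives of RAB35 and for RAB5A, drawn with the library number, the group mean and 1 SD to each side (n = 3), KI and WT being from one table and ActA and SB from the other. RAB10 is 62.2 to 68.6 FPKM in WT and 47.8 to 53.4 FPKM in the other groups, and RAB1A and RAB5A each have a single library apart.

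KI against WT asks how the reporter lines differ from the cells without it, a contrast that played no part in the choice of RAB35. Of the 54 members, 48 passed the filter of 0.1 FPKM in at least 3 of 6 libraries and were tested with limma among 14014 genes. When p was adjusted by the Benjamini-Hochberg method and held to 0.05, 1 member was higher and 2 were lower in KI. Over all genes 7.22% passed this threshold, 4.88% higher and 2.34% lower, so 3 of 48 members is close to the background. At a fold threshold of 1 on the log2 scale as well, 2.31% of all genes and 0 members passed, while 16 members had an unadjusted p of at most 0.05 (6 higher, 10 lower), or 33.3% against 28.6% of all genes. Groups did not overlap for 21 members, 9 higher and 12 lower in KI, or 43.8% against 35.7% of all genes. The median difference over the members was 0.02, beside -0.0014 over all genes tested, and the median size regardless of sign was 0.21 against 0.23. The count past the adjusted p was 0 without KI library 1, KI library 2 or WT library 2, 1 without KI library 3 or WT library 1, and 5 without WT library 3.

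RAB11A and RAB10 fell and RAB7B rose in KI. RAB11A, the recycling-endosome GTPase that also serves cilium formation, was 36.6, 33.0 and 30.6 FPKM in WT and 21.3, 22.4 and 22.4 FPKM in KI. Every KI library lay below every WT library, and the difference was -0.58 (standard error 0.10, 95% interval -0.82 to -0.33, limma adjusted p = 0.025). RAB10 was 68.6, 66.6 and 62.2 FPKM in WT and 49.5, 48.3 and 50.1 FPKM in KI, again with no overlap (-0.41, standard error 0.087, limma adjusted p = 0.037). RAB7B, which acts between late endosomes and the Golgi, was 1.32, 0.533 and 0.880 FPKM in WT and 2.01, 2.64 and 3.05 FPKM in KI, so that the mean was 2.82-fold higher in KI (0.91, standard error 0.19, limma adjusted p = 0.036). For each of them an exact permutation test over the 6 libraries, two-sided, returned p = 0.1, below which it cannot go. The groups also differed in relative depth and in the sums of both marker lists, and the part of either in these differences was not tested. Leaving out 1 library at a time removed most of these calls: RAB11A, RAB10 and RAB7B each passed in 1 of 6 such fits, with the direction kept in all 15 alternatives run. Among these fits the calls of RAB11A and RAB10 were kept only without WT library 3, and that of RAB7B only without WT library 1. With the replicate block RAB11A, RAB10 and RAB7B did not pass (limma adjusted p = 0.060, 0.077 and 0.079), with their differences unchanged. KI and WT libraries of the same number did not deviate together (correlations -0.02, 0.01 and 0.09), so this block is an alternative setting and not a pairing. RAB10 also lost its call without the variance trend (limma adjusted p = 0.056), and RAB7B without the filter on low values (limma adjusted p = 0.066).

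**Figure D4:**
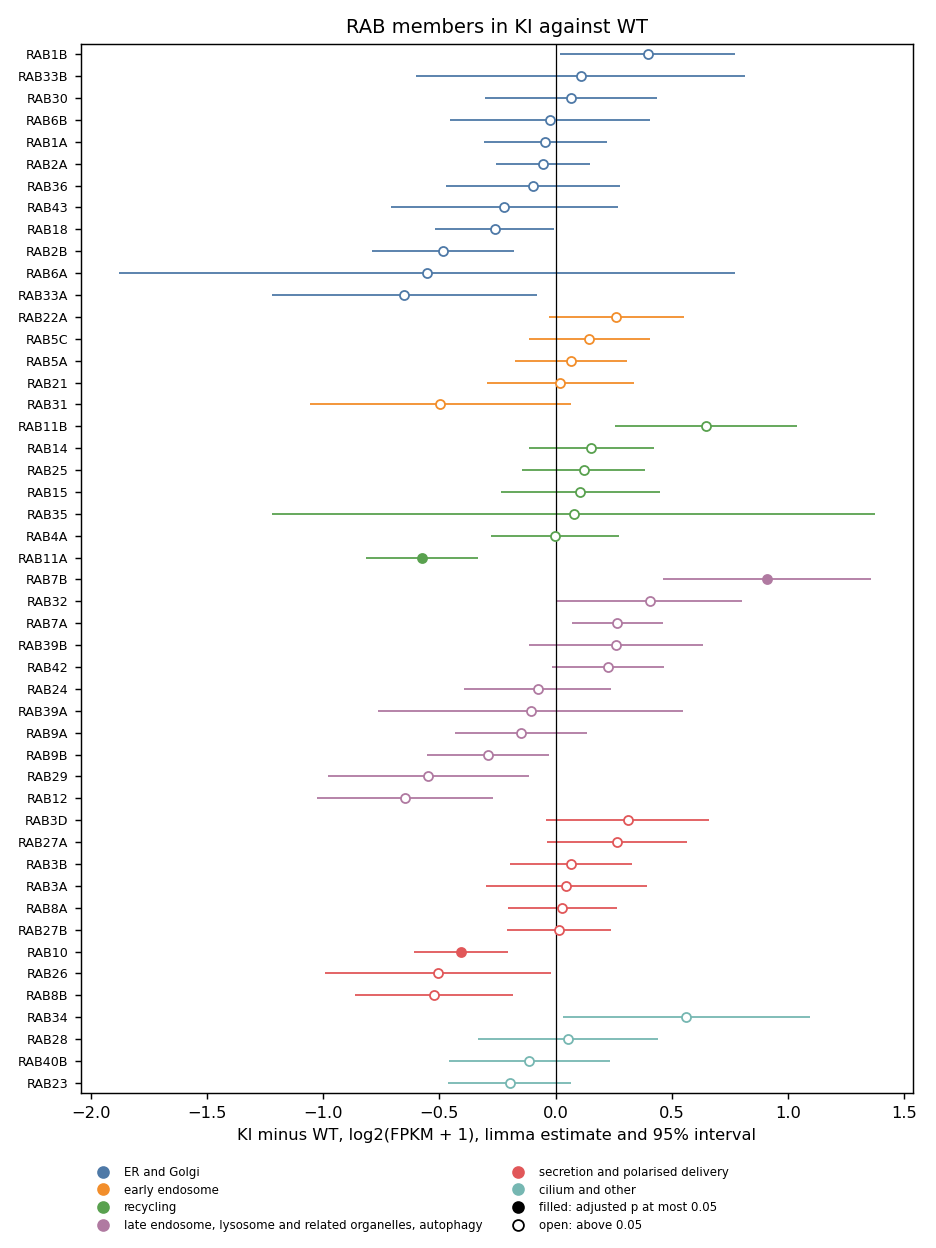
KI minus WT on the log2(FPKM + 1) scale for the 48 tested RAB members, as the limma estimate with its 95% interval, coloured and ordered by role; filled points have an adjusted p of at most 0.05. RAB7B lies to the right (0.91), RAB11A (-0.58) and RAB10 (-0.41) lie to the left, and RAB35 and RAB6A have the widest intervals.

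The recycling group of 7 tested members held RAB11A and, with its largest positive difference, the close paralogue RAB11B. RAB11B was 56.0, 67.3 and 87.9 FPKM in WT and 108, 98.9 and 120 FPKM in KI, with no overlap but a limma adjusted p of 0.060 (0.65, standard error 0.17). The ratio of RAB11B to RAB11A was 1.53 to 2.88 in WT and 4.42 to 5.37 in KI, and it was 4.14 to 5.83 in ActA and 4.18 to 4.92 in SB. A ratio within a library shows unequal change of the pair, not which of them changed. RAB4A, which returns cargo quickly from early endosomes, had a difference of -0.002 (95% interval -0.28 to 0.27). RAB14, RAB15 and RAB25, also of recycling routes, had differences of 0.15, 0.11 and 0.12, and none of the 3 passed.

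Among the 12 tested members of the endoplasmic reticulum and Golgi group, 3 had a higher and 9 a lower mean in KI, the median difference was -0.08, and none passed the adjusted p. RAB33A, which acts at the Golgi and in autophagosome formation, was 3.97, 2.20 and 2.75 FPKM in WT and 2.16, 0.854 and 1.63 FPKM in KI (-0.65, standard error 0.24, limma adjusted p = 0.14). The 5 tested members of the early endosome ranged from -0.50 to 0.26, again with none past the threshold. RAB31, which sorts cargo between the Golgi and endosomes, was 9.87, 10.2 and 6.87 FPKM in WT and 6.47, 4.12 and 7.95 FPKM in KI, with overlap. Its difference of -0.50 was -0.27 without KI library 2. RAB21, an integrin-trafficking GTPase, differed by 0.02 (95% interval -0.30 to 0.34) and RAB5A by 0.07 (-0.17 to 0.31).

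The late endosome, lysosome and autophagy group had 11 tested members, of which 8 had groups without overlap, 4 higher and 4 lower in KI, where 35.7% of all genes had such groups; with 11 members nothing is read from that count. RAB7A was 63.4, 60.2 and 63.9 FPKM in WT and 73.7, 78.3 and 74.2 FPKM in KI (0.27, standard error 0.084, limma adjusted p = 0.094). RAB32, which serves lysosome-related organelles and mitochondria, was 45.9, 30.2 and 45.0 FPKM in WT and 52.1, 57.8 and 48.9 FPKM in KI (0.40, standard error 0.17, limma adjusted p = 0.17), and the difference was 0.21 without WT library 2. RAB12, named after its values had been seen, a GTPase of degradation and autophagy, was 37.2, 26.2 and 24.8 FPKM in WT and 17.8, 19.4 and 17.2 FPKM in KI (-0.65, standard error 0.16, limma adjusted p = 0.055). In the secretion group of 9 tested members, RAB10 passed, and RAB8B was 37.9, 34.8 and 36.7 FPKM in WT and 22.8, 22.01 and 31.4 FPKM in KI (-0.52, standard error 0.14, limma adjusted p = 0.071). The ratio of RAB8B to RAB8A was 1.87 to 1.99 in WT and 1.18 to 1.53 in KI. RAB34, of the group of cilia and other roles, was 4.99, 3.68 and 7.03 FPKM in WT and 7.90, 9.66 and 6.65 FPKM in KI, an overlap at a single library (0.56, standard error 0.23, limma adjusted p = 0.16). The RAB34 difference was 0.37 without WT library 2.

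ActA against SB compares knock-in cells in which the receptor pathway was stimulated with cells in which it was inhibited. This contrast chose RAB35, so members are counted here beside the background and nothing is read from the counts. Of 48 members tested among 13999 genes, 1 met both thresholds, against 0.0929% of all genes, and 1 the adjusted p alone, against 0.136%. That member is RAB35, which is among the called genes through how it was chosen, so the count is no test of it. Libraries of ActA and SB with the same number deviated together. With the replicate number as a block, 2 members passed the adjusted p alone, against 2.88% of all genes, and 1 passed both thresholds, against 0.707%. The 2 were RAB39B and RAB35, and for RAB35 this is again no test. Groups did not overlap for 16 members, 6 higher and 10 lower in ActA, or 33.3% against 20% of all genes. The median size of the difference regardless of sign was 0.20 over the members and 0.12 over all genes tested, and only 3 members had a difference of more than 0.5. Either count was 0 without ActA library 1, ActA library 2, SB library 1 or SB library 3, while the RAB35 difference stayed between -1.44 and -1.38 whichever library was left out. Of the 12 pericyte and fibroblast markers, 3 were higher and 3 lower in ActA than in SB without overlap, among them COL1A2 (11.2 to 21.3 against 3.24 to 4.77 FPKM) and ACTA2 (7.52 to 9.28 against 18.7 to 20.6 FPKM), and their part in the RAB differences was not tested.

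**Figure D5:**
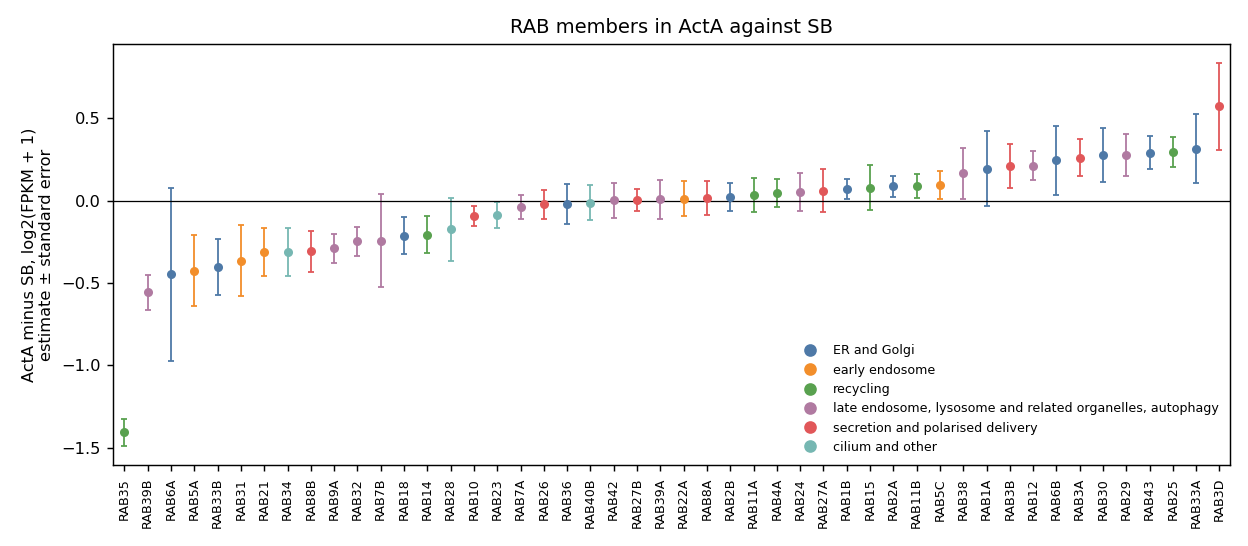
ActA minus SB on the log2(FPKM + 1) scale for the 48 tested RAB members in order of size, as the estimate with 1 standard error to each side, coloured by role. RAB35 lies at -1.41, apart from the next member, RAB39B at -0.56, and RAB3D is at the other end at 0.57.

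RAB39B, a neuronal and endosomal RAB linked to autophagy, was the next after RAB35 among the lower members. It stood at 4.32, 4.62 and 4.999 FPKM in ActA and 7.29, 6.74 and 7.89 FPKM in SB, with no overlap (-0.56, standard error 0.11, or 0.084 with the replicate block). In KI it was 5.77, 6.08 and 6.66 FPKM, between the treated groups, and in WT 4.36, 4.57 and 6.17 FPKM. RAB3D, a GTPase of regulated secretion, had the largest positive difference, 0.57 (standard error 0.26). It stood at 4.46, 5.39 and 9.12 FPKM in ActA and 3.71, 2.87 and 4.88 FPKM in SB. The groups overlapped, and each ActA library lay above the SB library of the same number.

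Among the other members with the 10 largest differences, RAB33B, of the Golgi and autophagosomes, and RAB21 had ActA wholly below SB. RAB33B was 4.91, 4.42 and 3.02 FPKM in ActA and 5.32, 6.49 and 5.29 FPKM in SB (-0.40, standard error 0.17). RAB21 was 11.99, 10.7 and 7.89 FPKM in ActA and 12.9, 12.9 and 12.5 FPKM in SB (-0.31, standard error 0.15). RAB6A (-0.45), RAB5A (-0.42), RAB31 (-0.37), RAB34 (-0.31) and RAB33A (0.32) overlapped between the treatments. By library number, RAB5A and RAB31 were lower and RAB33A higher in ActA in all 3 pairs. RAB6A and RAB5A were the ones with libraries apart described above, and their standard errors were 0.53 and 0.22. The 5 members with the highest means differed little, from -0.10 for RAB10 to 0.09 for RAB11B.

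The genes most like RAB35 over the 12 libraries were sought by the Pearson correlation of log2(FPKM + 1) among 13695 other genes above the filter in both tables; this is a description, since the libraries share treatments, lines and tables. The nearest were ZCCHC2 (r = 0.84), SIMC1 (0.83), SPDYC (0.82), B4GALT6 (0.82) and MIER2 (0.81). None of them had 2 levels: from the lowest to the highest library ZCCHC2 changed 1.35-fold, SIMC1 1.54-fold, MIER2 1.22-fold and B4GALT6 2.44-fold, while SPDYC stayed under 0.2 FPKM. B4GALT6, a lactosylceramide synthase, was 2.52, 2.36 and 2.27 FPKM in ActA, 3.07, 5.51 and 3.70 FPKM in SB, 2.82 FPKM in KI library 1 and 2.40 FPKM in WT library 2. Within the family RAB39B (0.66), RAB9A (0.57) and RAB32 (0.56) came nearest. RAB9A, which returns mannose 6-phosphate receptors from late endosomes to the Golgi, was 5.96, 6.20 and 6.28 FPKM in ActA and 7.41, 7.97 and 7.84 FPKM in SB, and 6.74 to 8.38 FPKM in KI and WT, where WT library 2 and KI library 1 were not low.

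RAB proteins need partners that load GTP, end the signal and carry it out, and a list of 75 such genes was drawn up from general knowledge, of which 70 were matched by symbol. In KI against WT 67 were tested, 2 passed the adjusted p (1 higher, 1 lower) beside the 7.22% of all genes, and 29 had groups without overlap, or 43.3% against the 35.7% of all genes. In ActA against SB 0 of 68 passed the limma adjusted p, beside 0.136% of all genes. With the replicate number as a block, a fit of the partners added after the data were seen, 2 passed, both lower in ActA, beside 2.88% of all genes. One was RAB3IP, an exchange factor for RAB8, at 12.8, 14.2 and 12.3 FPKM in ActA and 24.2, 25.3 and 17.3 FPKM in SB (-0.71, limma adjusted p = 0.043). The other was SYTL2, a RAB27 effector, at 0.28, 0.083 and 0.069 FPKM in ActA and 1.56, 0.59 and 1.23 FPKM in SB (-0.87, limma adjusted p = 0.043). Without the block 11 partners had an unadjusted p of at most 0.05, where 12.8% of all genes had one, and 15, or 22.1% against 20%, had groups without overlap. FSCN1, which encodes the actin-bundling protein fascin and is known as a RAB35 effector, rose in KI. It was 33.8, 36.9 and 40.5 FPKM in WT and 70.6, 87.3 and 92.1 FPKM in KI (1.14, standard error 0.13, limma adjusted p = 0.0070). TBC1D30, a GTPase-activating protein of the TBC family, fell from 1.59, 0.950 and 1.10 FPKM in WT to 0.436, 0.296 and 0.547 FPKM in KI (-0.63, standard error 0.14, limma adjusted p = 0.042). No gene of the list passed as lower when any single KI library, WT library 2 or WT library 3 was left out. The call of TBC1D30 was also lost with a pseudocount of 0.01, without the filter and with the replicate block.

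The exchange factors that activate RAB35 through their DENN domains were low. DENND1A was 1.88 to 3.07 FPKM and DENND1B 2.04 to 3.13 FPKM over all libraries, with overlap in both comparisons, and DENND1C was under 1 FPKM in every library. In ActA against SB the differences of these 3 were 0.01, -0.01 and -0.15. By library number DENND1C was lower in ActA in all 3 pairs, as RAB35 was, but did not pass with the block (limma adjusted p = 0.29). The pairs of DENND1A and of DENND1B went both ways. The GTPase-activating proteins known for RAB35 were led by TBC1D10B, at 22.1, 23.8 and 28.8 FPKM in ActA and 18.5, 18.1 and 21.4 FPKM in SB, with no overlap (0.35). TBC1D10A, TBC1D13 and TBC1D24 had differences of 0.22, 0.16 and 0.19 with overlap, though by library number TBC1D10A and TBC1D24 were higher in ActA in all 3 pairs, and TBC1D10C was under the filter.

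Of the other effectors, ACAP2, which inactivates the GTPase ARF6 on recruitment by RAB35, was 8.50, 9.33 and 7.99 FPKM in ActA and 13.2, 11.8 and 15.8 FPKM in SB, with no overlap (-0.60). In KI it was 10.4, 11.5 and 9.52 FPKM, and in WT 11.04, 19.0 and 17.9 FPKM, and WT library 2, where RAB35 was low, had the highest ACAP2. MICALL1, a scaffold of tubular recycling endosomes, was 8.58, 10.3 and 10.9 FPKM in WT and 13.7, 14.4 and 14.9 FPKM in KI (0.50, standard error 0.13, limma adjusted p = 0.057). OCRL, a phosphoinositide phosphatase, and RUSC2, an adaptor, had KI wholly below WT but did not pass (-0.27 and -0.37), and their ActA and SB values overlapped. By library number RUSC2 was lower and MICALL1 higher in ActA in all 3 pairs (-0.14 and 0.09), and neither passed with the block (limma adjusted p = 0.36 and 0.48).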

How the data were processed

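After trimming (Trim Galore) and alignment to Ssc11.1 (HISAT2 2.0.4), the authors deposited FPKM from StringTie 1.3.3 with Ensembl release 97; they tested featureCounts 1.6.4 counts with DESeq2, and those counts were not analysed here. Members and lists were chosen with earlier results of these data known. Each table of 6 libraries was fitted on its own. Genes with at least 0.1 FPKM in 3 libraries were kept, 1 was added before log2, and limma 3.58.1 (R 4.3.3) was run with a variance trend, two-sided, with Benjamini-Hochberg adjustment over all genes tested. Thresholds were an absolute log2 difference of 1 and an adjusted p of 0.05. In simulated data 200 genes with a mean above 2 on the log2(FPKM + 1) scale were changed by 2. Of these, 181 were recovered with 2 false calls among 14014 genes (KI against WT). In ActA against SB 193 were recovered with 4 false calls among 13999. The simulated libraries were not paired. No member differed by as much as 2, so these rates do not carry over to the differences reported here. Libraries 1, 2 and 3 of ActA and SB correlated in their deviations from the group means at 0.40, 0.59 and 0.53, so their numbers, which are in the sample titles, were taken to pair them. Relative depth was estimated from values under 0.3 FPKM. Reads of related genes were not reassigned, and strand is not given in the sources used here.

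Named members were RAB35, its relatives by subfamily, members past the adjusted p in KI against WT whose groups do not overlap, the 10 with the largest ActA minus SB difference, the 5 most abundant, and the nearest to RAB35 by correlation (5 genes and 3 members). RAB35 partners and those past the adjusted p were also named. RAB12, RAB4A, RAB14, RAB15, RAB25 and the neighbours of RAB35 were named outside that rule. Coordinates are those of RefSeq on Sscrofa11.1, matched by symbol for 54 of 54 members. The settings varied in turn were the pseudocount (0.1 and 0.01), the filter (none, or 1 FPKM), rescaling to TPM, median-ratio scaling, quantile normalization, no variance trend, the replicate block and leaving out each library. Python 3.11.15 with pandas 2.3.3, numpy 2.4.6, scipy 1.17.1 and matplotlib 3.10.9 was used for the tables and plots.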

Additional observations from a re-analysis of the deposited data

How the results depend on the processing

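KI against WT held few firm calls. The count of members past the adjusted p alone (3) was 0 with the replicate block and 0 to 5 when a library was left out; past both thresholds (0) it was 1 with pseudocounts of 0.1 and 0.01 and with TPM, and 0 to 1 when a library was left out. In ActA against SB both counts were 1; they were 0 to 1 when a library was left out, and the count by the adjusted p alone was 2 with the replicate block. Counts fell to 0 without ActA library 1 or 2 and without SB library 1 or 3, with the RAB35 difference between -1.44 and -1.38 in every such fit. The ActA minus SB value of RAB35 (-1.41) was -1.55 and -1.57 with pseudocounts of 0.1 and 0.01 and -1.53 with TPM. RAB partners past the adjusted p in KI against WT (2) numbered 1 with a pseudocount of 0.01, without the filter and with the replicate block, 5 with the filter of 1 FPKM, 4 with median-ratio scaling and with quantile normalization, and 1 to 3 when a library was left out; in ActA against SB (0) they numbered 2 with the replicate block.

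Of 330 alternative values of named members in KI against WT, 295 kept direction and side of the threshold, 20 lost and 2 gained the call, and 13 changed sign. The sign changed for members near 0 or with libraries apart. With quantile normalization RAB8A, RAB5A and RAB21 were at -0.023, -0.025 and -0.0055. With a library left out RAB35 ranged from -0.49 to 0.56, RAB1A from -0.11 to 0.041, RAB8A from -0.011 to 0.054, RAB5A from -0.012 to 0.11, RAB33B from -0.20 to 0.43 and RAB21 from -0.074 to 0.12. The numbers of KI and WT libraries did not pair them (same-number correlations -0.02, 0.01 and 0.09), and the replicate block there changed the calls of RAB11A, RAB10 and RAB7B (limma adjusted p = 0.060, 0.077 and 0.079, within 0.022 to 0.11, 0.022 to 0.14 and 0.032 to 0.11 over their alternatives). The cause of these shifts was not tested. FPKM without read numbers limits what can be said of low members such as RAB7B.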

Other observations

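The gene-name table pairs 4 rows that carry no symbol with RAB names, which places them outside the 54 members. RAB13, a relative of RAB35 at cell junctions, stood at 56.4, 64.9 and 56.3 FPKM in WT and 42.8, 49.4 and 48.1 FPKM in KI, with no overlap (-0.33, standard error 0.10, limma adjusted p = 0.093), and at 40.7 to 55.0 FPKM in ActA and SB. RAB4B, of endosomal recycling, was 14.2 to 23.2 FPKM over the 12 libraries and RAB3C, of regulated secretion, 5.12 to 8.19 FPKM, with overlap in both tables. RAB40C, whose product joins a ubiquitin ligase, was 3.48 FPKM in KI library 2 and 4.87 FPKM in ActA library 1, against 9.14 to 20.2 FPKM in the other 10 libraries. These rows were looked up after the member values had been seen.

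Among the 34 genes whose levels divided at least 2 groups, RAB35 was the tenth by the size of its gap. The list also holds RHOA, a small GTPase that organises actin, with a gap of 1.01 and WT library 3, KI libraries 1 and 3 and SB library 2 low, and GORASP1, a Golgi stacking protein, with a gap of 1.21. ISYNA1, the inositol-3-phosphate synthase, had the widest gap, 3.21, and was low in library 3 of KI, ActA and SB. The cause was not tested for any of them.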
